A study of Bos taurus with 20 samples.

Results

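The cell cycle and mitotic machinery of bovine embryos at day 14 was followed through 116 of the 15542 genes in the deposited expression table. The genes were taken by their symbols, by a rule that uses no measured value but was written with earlier results of these data known. They were the numbered cyclin-dependent kinases (CDK), cyclins A, B, D and E, the minichromosome maintenance (MCM) genes and the numbered kinesins (KIF). With them came the lettered centromere proteins (CENP), the aurora (AURK) and polo-like (PLK) kinases, BUB genes, 11 CDC genes, MKI67, TOP2A, PCNA and UBE2C. By textbook role, 10 act in G1 or at entry into S phase, 12 in S phase and 56 in mitosis (M). The other 38 are kinases and kinesins with main roles elsewhere, among them AURKAIP1 and KIF1BP, which match by name and are neither an aurora kinase nor a kinesin.

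In G1, cyclin D with CDK4 or CDK6, and then cyclin E with CDK2, release the cell into S phase, where the MCM helicase opens the DNA and PCNA clamps the polymerases onto it. Cyclin B with CDK1 then drives mitosis, kinesins and centromere proteins move the chromosomes, and the anaphase-promoting complex (APC/C) ends mitosis by marking cyclin B for destruction. The trophectoderm (TE), the outer epithelium that forms the placenta, multiplies rapidly while the ruminant embryo elongates.

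The samples were 7 vitrified TE, 5 fresh TE, 2 vitrified whole embryos and 6 fresh whole embryos, all recovered at day 14 by flushing the uterus. Vitrified embryos had been cryopreserved by cooling into a glass, and fresh ones had not. The submitters state 12 fresh and 9 vitrified embryos without tying samples to embryos, so the p-values speak of how far these libraries scatter, which may in part be technical. The labels name neither the stage at vitrification nor a batch, and group and batch cannot be told apart if they coincide.

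Libraries held 6.01 to 14.53 M reads (M, 1000000). The 5 fresh TE libraries stood apart, and every comparison with fresh TE rests on them. Listed genes took 33.8 to 40.3% of their reads, against 57.5 to 63.9% in the other libraries. Mitochondrial messenger RNA took 1.09 to 1.41% of listed-gene reads in fresh TE, against 3.01 to 9.87% in the others. Fresh TE 1 and 2, and fresh TE 3 and 4, were nearly the same library (chi-square per degree of freedom 1.88 and 1.48, against at least 6.89 for every other pair within a group). Trophectoderm markers (9 of 9 found) summed to 2560 to 3690 RPKM (reads per kilobase and M reads) in vitrified TE and 2410 to 3180 in fresh TE. The sums were 2890 and 3410 in vitrified whole embryos, and 1800 to 2570 in fresh ones. KRT18 made up most of the fresh TE sum, at 1920 to 2480 RPKM, against 1080 to 1890 in vitrified TE. The other markers did not follow it. KRT8 (141 to 183 RPKM in fresh TE, 688 to 976 in vitrified TE), KRT19, GATA3, GATA2, ASCL2, ELF3 and CDH1 were higher in every vitrified TE sample than in any fresh one. TFAP2C overlapped, with a lower median in vitrified TE. Epiblast markers (5 of 5 found) summed to 0.61 to 1.81 RPKM in vitrified TE, 0.0229 to 0.241 in fresh TE and 1.66 to 9.24 in fresh whole embryos. Among vitrified whole embryos they summed to 0.551 in replicate 1, just below the lowest vitrified TE sample and against the label of a whole embryo, and to 28.0 in replicate 2. In replicate 1 POU5F1 (0.316 RPKM), NANOG, SOX2 and LIN28B lay within the vitrified TE range. DPPA4 did not follow the sum, at 0.144 and 0.169 RPKM in vitrified whole embryos and at most 0.128 in vitrified TE. Results on vitrified whole embryos are therefore given with and without each replicate. Hypoblast markers (5 of 6 found) summed to 588 to 1250 RPKM in vitrified TE and 150 to 322 in fresh TE. The sums were 200 and 690 in vitrified whole embryos, and 561 to 989 in fresh ones. APOA1 made up nearly all of them, at 585 to 1240 RPKM in vitrified TE and 149 to 322 in fresh TE. All 5 were higher in every vitrified TE sample than in any fresh one. In whole embryos GATA6 ran against the sum, at 0.0804 and 0.0984 RPKM in vitrified and at most 0.0262 in fresh ones. There SOX17, FOXA2 and PDGFRA overlapped. Trophoblast secretion markers (5 of 5 found) summed to 33.1 to 51.6 RPKM in vitrified TE, 365 to 435 in fresh TE, 48.1 and 51.9 in vitrified whole embryos, and 51.2 to 84.1 in fresh whole embryos. All 5 were lower in every vitrified TE sample than in any fresh one. In whole embryos they parted. There IFNT and PTGS2 were lower in both vitrified embryos than in any fresh one, PAG11 overlapped, and PAG2 (2.42 and 5.85 RPKM against 0.346 to 1.27) and SSLP1 were higher. Blood and immune markers (3 of 6 found) summed to 9.6 to 15.8 RPKM in fresh TE and 2.38 to 6.04 elsewhere, and they did not move together. AIF1 made up most of the fresh TE sum, at 0.341 to 1.1 RPKM in vitrified TE and 8.83 to 15.3 in fresh TE. CD68 ran the other way, at 1.64 to 4.5 RPKM in vitrified TE and 0.217 to 0.563 in fresh TE, as did CD14, at 0.406 to 0.961 in vitrified TE and 0.0956 to 0.354 in fresh TE. Endometrial markers (2 of 6 found) reached at most 0.458 RPKM in any library. The part of these markers in the results below was not tested. In bulk samples, fewer dividing cells and less RNA per dividing cell cannot be told apart.

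Summed over each phase, G1, S and M genes all took a larger share of listed-gene reads in vitrified TE than in fresh TE, and the distance was largest for G1. The 10 G1 genes took 298 to 375 reads per M listed-gene reads in vitrified TE, against 82.7 to 141 in fresh TE, a 3.08-fold ratio of means. The 12 S genes took 1008 to 1155 in vitrified TE, against 400 to 555 in fresh TE, a 2.16-fold ratio. The 56 M genes took 3344 to 4389 in vitrified TE, against 2067 to 2228 in fresh TE, a 1.80-fold ratio. The vitrified and fresh TE samples did not overlap in any of these sums. The 38 other genes of the set took a larger share too, 1.41-fold and with no overlap. In whole embryos the ratios of vitrified over fresh were 1.81-fold for G1, 1.5-fold for S and 1.40-fold for M, again with no overlap, while the 38 others, at 1.09-fold, overlapped. The vitrified whole embryos had 308 and 430 for G1, 1115 and 1395 for S and 4628 and 5273 for M, against 168 to 252, 717 to 1032 and 3207 to 3843 in the fresh whole embryos. Being shares of listed-gene reads, these sums do not depend on how much of a library fell outside the listed genes. A larger share was not particular to these phases. Per M listed-gene reads, 49.4% of the 10599 genes tested below passed as higher in vitrified TE, and 15.7% as lower (limma adjusted p under 0.05). For whole embryos those percentages were 21.0 and 4.31. How far the phase sums go beyond a shift common to many genes was not tested. The phase sums are led by the abundant members and were not tested. Among G1 genes, CDK4 averaged 880 reads per library in vitrified TE against 40 in fresh TE, not scaled to depth. CCND2 came next in vitrified TE, at 349 against 83.8, and CCND3 averaged 81.7 against 97.8. The lead of G1 in TE thus leans on CDK4 and was not shown for G1 genes at large.

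**Figure D1:**
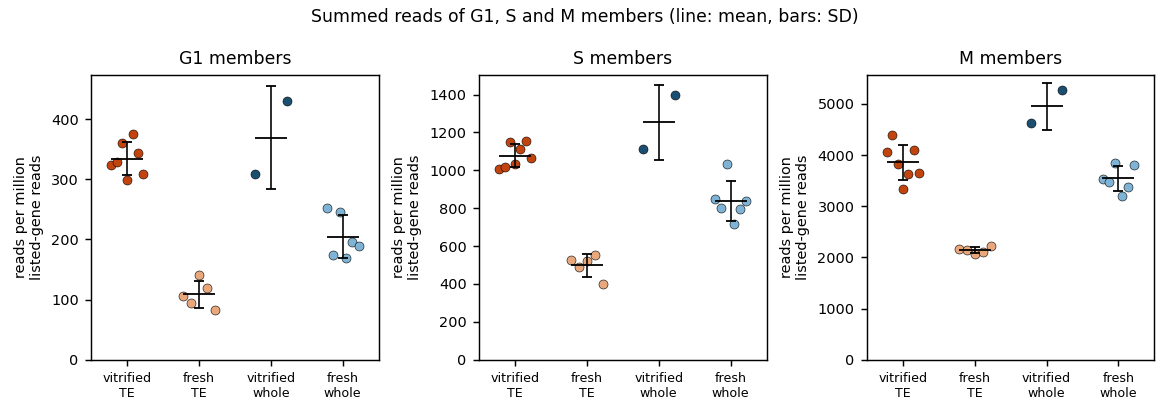
Reads of the G1, S and M genes, summed per phase, per M listed-gene reads in each library (points), with the mean (line) and SD (bars) of each group. Vitrified TE lies above fresh TE and vitrified above fresh whole embryos in all 3 panels. The ratios are 3.08-fold and 1.81-fold in G1, where CDK4 leads the TE ratio, and 1.80-fold and 1.40-fold in M.

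Of the 116 genes, 104 had at least 10 reads in at least 2 libraries and were tested, namely all 10 G1 genes, all 12 S genes, 53 of 56 M genes and 29 of 38 others. The 12 not tested were CCNA1, CDK17, CDK18, CDK19, CENPB, KIF19, KIF21B, KIF26A, KIF26B, KIF2B, KIF5A and KIF9. Tests were made with limma on log2(RPKM + 1), a scale that understates the change of low genes, with Benjamini-Hochberg adjustment across the 10599 genes tested. Folds are ratios of mean RPKM, and log2 changes are those of the fit. The RPKM count the whole genomic span of a gene, introns included, so levels are compared between samples and not between genes.

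The first comparison asks how TE of vitrified embryos differed from TE of fresh embryos. With the values as deposited, 89 of the 104 genes passed an adjusted p of 0.05 as higher in vitrified TE (85.6%), beside 69.0% of all genes tested, 4 were lower (3.85%, beside 6.66%) and 11 did not pass. A fold was taken where both groups compared held at least 10 reads in total, which left 9158 of the 10599 genes tested. The median gene of these was itself 2.19-fold higher in vitrified TE, and the median cell cycle gene was 2.75-fold higher. Of the 97 cell cycle genes with enough reads for a fold, 65 lay above the median gene and 32 below. Under listed-gene scaling (per M reads of the listed genes) 70 were higher and 7 lower, under median-ratio scaling (the median gene ratio set to 1) 51 and 15, and under quantile normalization 35 and 29. The shares of all genes tested that were higher under these scalings were 49.4%, 35.2% and 26.2%, and the shares that were lower were 15.7%, 27.5% and 38.7%. Under all 4 scalings 35 genes were higher (33.7%, beside 25.4% of all genes) and 4 were lower (3.85%, beside 6.66%). The 35 were 5 of 10 G1 genes, 6 of 12 S genes, 20 of 53 M genes and 4 of 29 others, and in the text below "rose" and "fell" without a scaling mean these calls. All 35 were also called with the near-identical libraries averaged and without each fresh TE library in turn. With the values as deposited, 81 of the 104 genes did not overlap between the groups in the higher direction (77.9%, beside 54.6% of all genes).

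**Figure D2:**
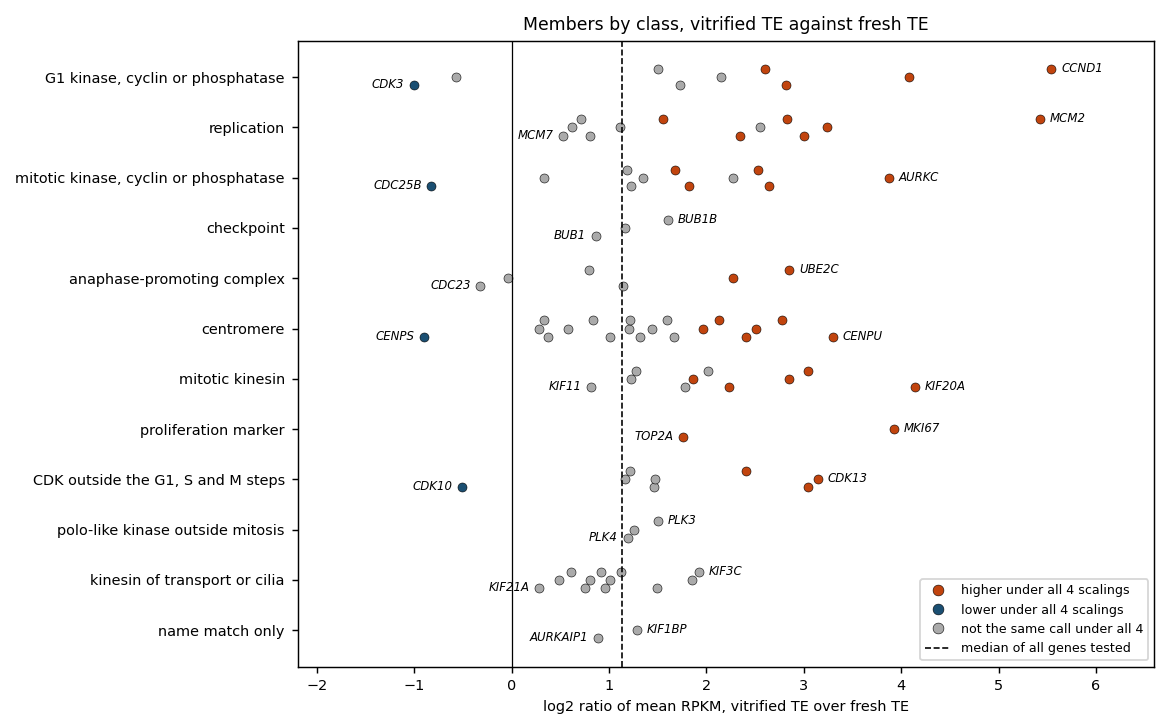
Each point is a tested gene, placed by the log2 ratio of mean RPKM in vitrified TE over fresh TE and set in rows by class, with the lowest and highest gene of each row named. The dashed line is the median of the genes tested that had enough reads for a fold, 2.19-fold higher in vitrified TE. CCND1, MCM2, KIF20A and MKI67 lie far to its right, and CDK3, CDC25B, CENPS and CDK10 lie left of 0.

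Among G1 genes, CDK4, the kinase that cyclin D switches on, showed the strongest call in the whole set. CDK4 (chromosome 5, 56039291 to 56042259 on UMD3.1) had 26.6, 34.7 and 38.9 RPKM as the lowest, median and highest of 7 vitrified TE samples, against 2.89, 1.91, 1.59, 1.53 and 2.17 RPKM in the 5 fresh TE samples. The groups lay far apart, with a 16.9-fold ratio of means and a log2 change of 3.55 (SE 0.16, limma adjusted p 1.9e-12). Cyclin D1 (CCND1, chromosome 29, 47544380 to 47553821) had 1.01, 1.57 and 2.95 RPKM as the lowest, median and highest in vitrified TE, against 0.0514, 0.106, 0.0135, 0 and 0.0158 in fresh TE, where its 5 libraries held 11 reads in all. It rose by 1.37 on the log2 scale (SE 0.13, limma adjusted p 2.2e-08), a 46.6-fold ratio of means. Cyclin E1 (CCNE1) had 0.0922 to 0.406 RPKM in vitrified TE and 5 reads in all of fresh TE, too few for a fold, and rose with an adjusted p of 0.0021 (limma). Cyclin E2 (CCNE2) at 6.05-fold and CDC25A, the phosphatase that frees CDK2, at 7.04-fold rose as well.

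The cyclins D did not move together. Cyclin D3 (CCND3) had 1.01, 1.34 and 2.06 RPKM as the lowest, median and highest in vitrified TE, against 1.5, 1.25, 3.29, 2.6 and 1.53 in fresh TE. The groups overlapped, and with the values as deposited its log2 change of -0.32 did not pass (limma adjusted p 0.051), while under the other 3 scalings it was lower. Cyclin D2 (CCND2) was 3.32-fold higher as deposited and under listed-gene scaling and did not pass under the other scalings. CDK6, the other kinase of cyclin D, held 28 reads in all of fresh TE and was higher under 3 scalings and lower under quantile normalization. CDK2 averaged 3.12 ± 0.749 RPKM in vitrified TE and 1.10 ± 0.243 in fresh TE (SD, n = 7 and 5) and was higher under every scaling but quantile normalization. CDK3, a kinase described at exit from the resting state, was the G1 gene that fell, to 0.224 ± 0.103 RPKM in vitrified TE against 0.449 ± 0.247 in fresh TE, with 65 reads in all of fresh TE and an adjusted p of 0.025 (limma). All vitrified values, 0.0256 to 0.341 RPKM, lay below 4 of the fresh ones, 0.415 to 0.736, and fresh TE 5 lay among them at 0.0695. The CDK3 call was lost without fresh TE 2 or without fresh TE 4, where the log2 change was -0.16 and -0.20. It was also lost with the near-identical libraries averaged (limma adjusted p 0.15), with a pseudocount of 0.1 (0.091) and with the compared groups alone (0.053).

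Within a library, a ratio of a pair of genes does not depend on scaling. CDK4 over CCND3, a pair chosen after the values were seen and given without a test, was 17.7 to 35.8 in vitrified TE and 0.483 to 1.93 in fresh TE. It was 17.5 and 39.2 in vitrified whole embryos and 10.8 to 33.5 in fresh ones, so the low values were those of fresh TE alone.

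Among S genes, subunits of one helicase parted. MCM2 to MCM7 form the ring that unwinds DNA at the fork, and 5 of its subunits were in the table. MCM2 (chromosome 22, 60565325 to 60581053) had 2.86, 4.01 and 4.56 RPKM as the lowest, median and highest in vitrified TE, against 0.0103, 0.0423, 0.194, 0.0961 and 0.105 in fresh TE. The 43.0-fold ratio of means rests on 51 fresh TE reads, and the log2 change was 2.15 (SE 0.15, limma adjusted p 3.6e-10). MCM5 had 4.56, 5.74 and 6.55 RPKM in vitrified TE, in the same order, against 0.544, 0.361, 0.772, 0.833 and 0.413 in fresh TE, a 9.47-fold ratio (log2 change 2.05, SE 0.14, limma adjusted p 3.1e-10). MCM6 rose 7.09-fold and MCM3 2.94-fold. MCM7 differed from these. It had 12, 13.9 and 18.9 RPKM in vitrified TE, against 10.6, 8.70, 11.1, 12.2 and 8.50 in fresh TE, so the groups overlapped at the edge, and it was 1.44-fold higher as deposited (limma adjusted p 0.004) but lower under median-ratio and quantile scaling. The ratio of MCM5 to MCM7 within a library, chosen after the values were seen and not tested, was 0.303 to 0.444 in vitrified TE and 0.0414 to 0.0698 in fresh TE. It was 0.346 and 0.498 in vitrified whole embryos and 0.115 to 0.270 in fresh ones, which also lay above fresh TE.

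PCNA, the sliding clamp, had 19.5, 33.1 and 38.4 RPKM as the lowest, median and highest in vitrified TE, against 6.21, 5.92, 5.39, 6.22 and 5.59 in fresh TE. All vitrified samples were above all fresh ones, by 5.07-fold in the means (log2 change 2.13, SE 0.18, limma adjusted p 6.5e-09). MCM10, which starts the fork, rose 8.04-fold, with 0.646 to 0.891 RPKM in vitrified TE and 0.0592 to 0.158 in fresh TE. CDC6, CDC45 and CDC7, which load and fire the helicase, were not called under all 4 scalings. CDC6, its loader, was 1.75-fold and CDC45, its cofactor, 2.16-fold higher as deposited, both passing (limma adjusted p 0.0062 and 1.3e-07), but CDC6 was below 0 on the log2 scale under median-ratio and quantile scaling and CDC45 under quantile scaling. CDC7, the kinase that fires origins, was 1.64-fold higher as deposited and lower under quantile normalization. MCM8, a helicase of recombination, had 0.0109 to 0.0614 RPKM in vitrified TE and 0.00774 to 0.0415 in fresh TE and was the S gene that did not pass as deposited (limma adjusted p 0.23), being lower under quantile normalization. MCM9, its partner, held 10 reads in all of fresh TE and was 5.86-fold higher, under every scaling but quantile normalization.

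**Figure D3:**
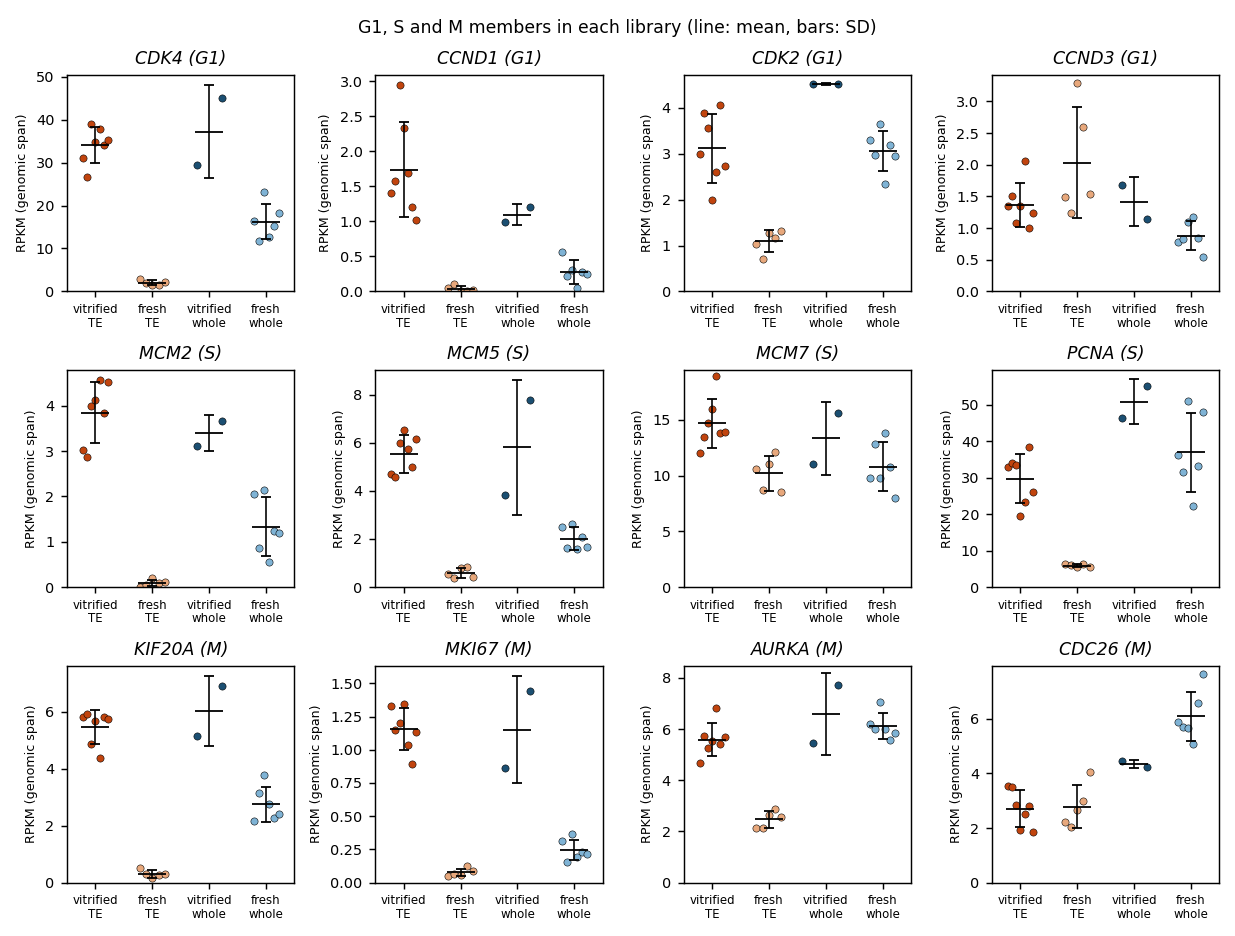
RPKM of 12 G1, S and M genes in each library (points), with the mean (line) and SD (bars) of each group. CDK4, CCND1, MCM2, MCM5, PCNA, KIF20A and MKI67 separate vitrified from fresh TE with no overlap, while CCND3, MCM7 and CDC26 overlap.

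Among the kinases, cyclins and phosphatases of mitosis, 9 of 11 tested were higher in vitrified TE as deposited (81.8%, beside 69.0% of all genes). Of the rest, 1 was lower and 1 did not pass. AURKB, AURKC, CCNB1, CDK1 and PLK1 rose under all 4 scalings (45.5%, beside 25.4% of all genes). AURKB, the aurora kinase of the chromosomal passenger complex, had 10.4, 12.5 and 15.6 RPKM as the lowest, median and highest in vitrified TE, against 2.21, 2.30, 1.97, 1.93 and 2.34 in fresh TE (5.78-fold, log2 change 2.08, SE 0.12, limma adjusted p 3.5e-11). PLK1, the polo-like kinase of mitotic entry and exit, had 2.74, 2.90 and 4.02 in vitrified TE, in the same order, against 0.706, 0.395, 0.543, 0.639 and 0.312 in fresh TE (6.26-fold, limma adjusted p 1.4e-09). Both kinases separated the groups completely. Cyclin B1 (CCNB1) averaged 13.4 ± 2.09 RPKM in vitrified TE and 3.82 ± 0.567 in fresh TE, and its partner CDK1 averaged 3.41 ± 0.826 and 1.07 ± 0.191. AURKC, an aurora kinase of the germ line, ranged most widely, from 0.601 to 4.45 RPKM over the vitrified TE samples (coefficient of variation 58.2%), against 0.0366 to 0.238 in fresh TE. AURKA, the spindle pole kinase, averaged 5.59 ± 0.650 RPKM in vitrified TE and 2.47 ± 0.335 in fresh TE, a 2.26-fold ratio that lies at the median gene, and it was higher under 2 scalings. Cyclin A2 (CCNA2), at 2.33-fold, and cyclin B2 (CCNB2), at 2.55-fold, were likewise called under 2 scalings, and CCNB3, a cyclin best known from meiosis, at 4.83-fold on 22 fresh TE reads, under 3.

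The phosphatases that activate CDK1 were described apart. CDC25B had 0.24, 0.324 and 0.535 RPKM as the lowest, median and highest in vitrified TE, against 0.759, 0.642, 0.544, 0.601 and 0.607 in fresh TE. It was the gene whose vitrified TE samples all lay below the fresh ones (1 of 104, beside 3.96% of all genes), and it fell by 0.27 on the log2 scale (limma adjusted p 0.0018). CDC25C had 0.318 to 0.498 RPKM in vitrified TE and 0.292 to 0.401 in fresh TE and did not pass as deposited (limma adjusted p 0.14), being lower under median-ratio and quantile scaling.

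Of the 6 APC/C genes in the set, the enzyme UBE2C and the activator CDC20 rose (33.3%, beside 25.4% of all genes). None of the 4 body subunits was called higher under all 4 scalings. UBE2C, the enzyme that starts ubiquitin chains for it, had 60, 76.4 and 90.9 RPKM as the lowest, median and highest in vitrified TE, against 11.7, 10.7, 9.09, 9.49 and 12 in fresh TE (7.22-fold, log2 change 2.73, SE 0.18, limma adjusted p 2.7e-10). CDC20, its activator and the target of the spindle checkpoint, had 24.3, 33.1 and 39.9 in vitrified TE, in the same order, against 5.29, 5.65, 8.35, 8.06 and 5.57 in fresh TE (4.85-fold, limma adjusted p 1.1e-09). Both rose with no overlap. Of the 4 body subunits, CDC27 was 2.21-fold and CDC16 1.73-fold higher as deposited, but CDC16 was lower under median-ratio and quantile scaling. CDC23 averaged 0.667 ± 0.0843 RPKM in vitrified TE and 0.834 ± 0.174 in fresh TE, and CDC26 averaged 2.71 ± 0.671 and 2.79 ± 0.795. Neither passed as deposited (limma adjusted p 0.064 and 0.87), and both were lower under the other 3 scalings. Body subunits outside the set did not all do the same, since ANAPC5 (4.20-fold), ANAPC11 (7.58-fold) and ANAPC15 (11.4-fold, on 43 fresh TE reads) rose and ANAPC4 (0.507-fold) fell. The ratio of CDC26 to CDC27 within a library was 4.11 to 6.68 in vitrified TE and 8.60 to 18.1 in fresh TE, a log2 difference of -1.18 (exact two-sided permutation test, p = 0.0013, the smallest that 792 permutations allow). With the near-identical libraries averaged it was -1.27 (exact permutation p = 0.0083). The ratio of CDC20 to CDC23, chosen after the values were seen and not tested, was 35.6 to 64.9 in vitrified TE and 7.41 to 8.84 in fresh TE. It was 25.2 and 51.5 in vitrified whole embryos and 17.3 to 30.5 in fresh ones, which also lay above fresh TE. The ratio of CDC26 to CDC27 was 5.02 and 5.99 in vitrified whole embryos and 8.86 to 13.3 in fresh ones. Ratios of CDK4 to CDK6, CCNB1 to CCND1 and MCM2 to PCNA could not be formed, since a gene of each had under 10 reads in a library.

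At the centromere, 14 of 19 genes tested were higher as deposited, 1 was lower and 4 did not pass, and 6 were higher under all 4 scalings (31.6%, beside 25.4% of all genes). The as-deposited share of 73.7% lies near the 69.0% of all genes. CENPE, a kinesin of the kinetochore (5.70-fold), CENPF, a protein of its outer layer (6.82-fold), CENPL (3.90-fold) and CENPU (9.83-fold, on 19 fresh TE reads) rose, as did CENPT, which links the inner centromere to the microtubule binders (4.37-fold). CENPX and CENPS, which bind each other, went opposite ways. CENPX (chromosome 19, 51494262 to 51497889) had 18.8, 27.1 and 32.3 RPKM as the lowest, median and highest in vitrified TE, against 3.21, 2.85, 4.60, 5.76 and 8.90 in fresh TE, and rose by 2.27 on the log2 scale (SE 0.21, limma adjusted p 1.3e-08). CENPS (chromosome 16, 44017901 to 44032548) had 3.54, 4.05 and 5.47 in vitrified TE, in the same order, against 5.45, 5.79, 8.66, 8.74 and 9.69 in fresh TE, and fell by 0.74 (SE 0.13, limma adjusted p 4.5e-05). CENPX did not overlap between the groups, and of CENPS the highest vitrified sample just passed the lowest fresh one. CENPA, the histone variant that marks the centromere, averaged 4.57 ± 0.660 RPKM in vitrified TE and 3.76 ± 0.686 in fresh TE and did not pass as deposited (limma adjusted p 0.26), being lower under median-ratio and quantile scaling. CENPC and CENPN, which bind CENPA chromatin, were 3.18-fold and 2.71-fold higher as deposited. Of the others, CENPH, CENPI, CENPO, CENPQ, CENPV and CENPW were 1.78-fold to 3.03-fold higher as deposited, and CENPK and CENPM did not pass. CENPJ, a centriole protein in spite of its name, had 0.414 to 0.542 RPKM in vitrified TE and 0.352 to 0.384 in fresh TE and did not pass (limma adjusted p 0.079), being lower under median-ratio and quantile scaling.

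The spindle checkpoint holds anaphase until chromosomes attach. Its kinase BUB1 was 1.82-fold, BUB3 2.24-fold and BUB1B 3.04-fold higher as deposited, beside 2.19-fold for the median gene. None of the 3 was called under all 4 scalings, and BUB1 was lower under quantile normalization.

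All 12 mitotic kinesins tested were higher as deposited, beside 69.0% of all genes. KIF20A, KIF22, KIF23, KIF2C and KIF4A rose under all 4 scalings (41.7%, beside 25.4% of all genes). KIF20A, a motor of the late spindle and of cell division (chromosome 7, 51214237 to 51222638), had 4.38, 5.75 and 5.93 RPKM as the lowest, median and highest in vitrified TE, against 0.520, 0.317, 0.152, 0.262 and 0.302 in fresh TE. The 17.6-fold ratio of means rests on 86 fresh TE reads, with a log2 change of 2.30 (SE 0.11, limma adjusted p 3.7e-12). KIF23, a motor of the same midzone, rose 8.22-fold, KIF22, which pushes chromosome arms, 4.70-fold, and KIF2C, which shortens microtubules, 3.64-fold. The other kinesins tested, KIF11, KIF14, KIF15, KIF18A, KIF18B, KIF20B and KIF2A, were not called under quantile normalization or were lower. KIF11, which keeps spindle poles apart, was 1.76-fold higher as deposited (limma adjusted p 3.6e-04) and lower under quantile normalization. KIF20A and CDC23 lie end to end on opposite strands of chromosome 7, 507 bases apart, and went opposite ways relative to the median gene, at 17.6-fold and 0.800-fold.

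Of the markers of dividing cells, MKI67, the coat protein of mitotic chromosomes, had 0.893, 1.15 and 1.34 RPKM as the lowest, median and highest in vitrified TE, against 0.0516, 0.0649, 0.0586, 0.122 and 0.0847 in fresh TE. It rose 15.2-fold on 74 fresh TE reads (log2 change 1.0, SE 0.06, limma adjusted p 1.6e-10). TOP2A, which untangles sister chromatids, averaged 3.96 ± 0.691 RPKM in vitrified TE and 1.17 ± 0.243 in fresh TE, and rose 3.39-fold.

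Among genes with main roles outside these steps, few calls held under every scaling. Of the 15 transport kinesins tested, 13 were higher as deposited, beside 69.0% of all genes. Under all 4 scalings 1 was higher (6.67%, beside 25.4% of all genes), KIF1C, with 3 fresh TE reads and so no fold. KIF5B, the general cargo motor, was 2.18-fold and KIF13B 3.60-fold higher as deposited, and KIF3A 1.95-fold. The last was lower under quantile normalization. KIF13A (3 fresh TE reads) was higher under 2 scalings, and KIF21A, with 0.0914 to 0.193 RPKM in vitrified TE and 0.0644 to 0.151 in fresh TE, did not pass as deposited (limma adjusted p 0.21), nor did KIF1B. CDK12 and CDK13, kinases of transcription, rose 8.23-fold and 8.85-fold, and CDK16 5.30-fold. CDK5, CDK9, CDK7 and CDK20 were 2.24-fold to 2.77-fold higher as deposited, and none of them was called under all 4 scalings. CDK8, of the Mediator complex, had 9 fresh TE reads and was higher under 3 scalings. CDK10 fell to 0.832 ± 0.128 RPKM in vitrified TE, against 1.19 ± 0.249 in fresh TE (limma adjusted p 0.0052). The polo-like kinases PLK2, PLK3 and PLK4 were 2.39-fold, 2.84-fold and 2.28-fold higher as deposited, and none of them was called under all 4 scalings. AURKAIP1 and KIF1BP, the name matches, were 1.85-fold and 2.44-fold higher as deposited.

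**Figure D4:**
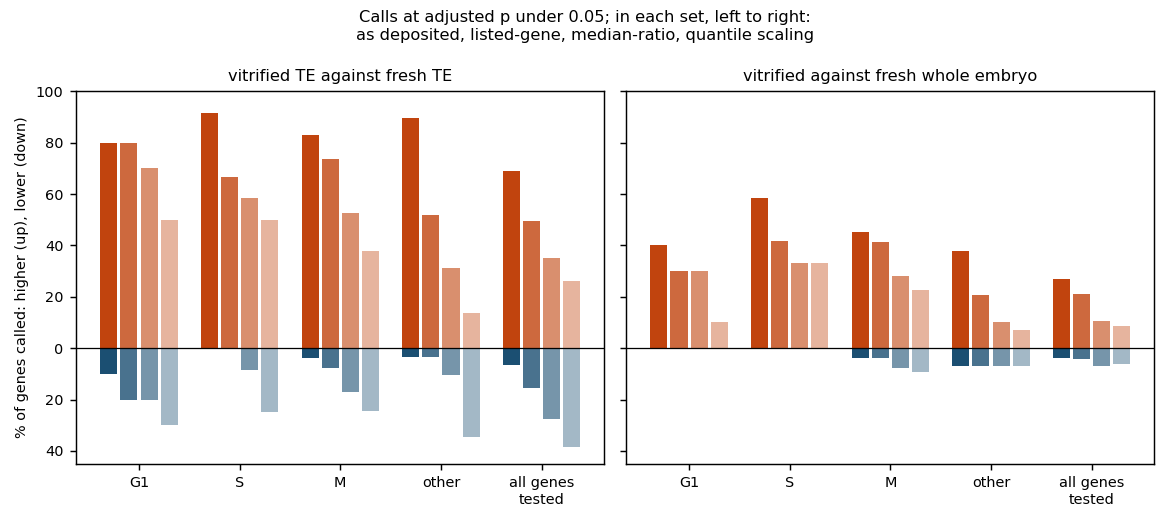
Share of G1, S, M and other genes of the set, and of all genes tested, called higher (bars up) or lower (bars down) at a limma adjusted p under 0.05, under 4 scalings. In vitrified against fresh TE the share of genes called higher fell with each scaling, for all genes tested through 69.0, 49.4, 35.2 and 26.2%.

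A list of 121 other cell cycle genes was counted the same way. Of its 112 tested genes, 87 were higher in vitrified TE as deposited (77.7%, beside 69.0% of all genes), 6 were lower and 19 did not pass, and under all 4 scalings 32 were higher (28.6%, beside 25.4% of all genes) and 6 lower (5.36%, beside 6.66%). Cohesin and condensin, which hold and fold chromatids, had 7 of 12 higher under all 4 scalings, among them NCAPD2 at 5.07-fold. Of the 29 genes of replication origin and fork, 6 rose (20.7%), among them GINS2, of the helicase, at 25.7-fold on 50 fresh TE reads and DBF4, the activator of CDC7, at 3.26-fold, while CDT1, a loader of the helicase, fell (0.457-fold). Of the 6 genes of nucleotide supply, 0 rose, and RRM1 (0.776-fold) and DUT (0.617-fold) fell. TPX2, the activator of AURKA, averaged 1.65 ± 0.0962 RPKM in vitrified TE and 0.304 ± 0.0510 in fresh TE (5.42-fold, limma adjusted p 1.4e-11). UBE2S, which extends ubiquitin chains on the APC/C after UBE2C, rose 9.38-fold, to 201 ± 43.3 RPKM in vitrified TE against 21.4 ± 4.06 in fresh TE. E2F4, a repressor paired with RB proteins, rose 6.55-fold, the polymerase subunit POLD2 4.18-fold, the checkpoint kinase CHEK1 3.29-fold, the kinetochore protein PMF1 5.52-fold and LIN37, of the complex that times cell cycle genes, 25.7-fold on 21 fresh TE reads. RRM2, the partner of RRM1 in making deoxynucleotides, was 2.24-fold higher as deposited and was not called under all 4 scalings. The kinetochore gene DSN1 fell as well (0.743-fold). The CDK inhibitors parted. Of the 6 tested, 2 rose, CDKN2C at 7.73-fold on 16 fresh TE reads and CDKN2D at 3.71-fold on 51. CDKN1C, an imprinted inhibitor of G1 kinases, was the 1 that fell. It averaged 3.72 ± 1.5 RPKM in vitrified TE against 31.1 ± 10.6 in fresh TE (log2 change -2.75, limma adjusted p 7.6e-08).

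Vitrified whole embryos were compared with fresh whole embryos, a comparison that shares no library with that of the TE groups. As deposited, 46 of the 104 genes were higher in vitrified whole embryos (beside 26.9% of all genes tested), 4 were lower (beside 3.94%) and 54 did not pass. By phase, 4 of 10 G1 genes, 7 of 12 S genes, 24 of 53 M genes and 11 of 29 others were higher. Over the 10166 genes with enough reads for a fold, the median gene was 1.32-fold higher, and the median cell cycle gene was 1.46-fold higher. Under listed-gene, median-ratio and quantile scaling 36, 25 and 19 genes were higher (beside 21.0, 10.6 and 8.68% of all genes) and 4, 6 and 7 lower (beside 4.31, 7.0 and 6.14%). Both vitrified embryos lay above all fresh ones for 55 genes (52.9%, beside 29.4% of all genes) and below them for 5 (4.81%, beside 6.54%). Under all 4 scalings 19 genes rose (18.3%, beside 7.87% of all genes) and CDK7, CENPM, CENPS and PLK3 fell (3.85%, beside 3.11%). Fewer genes passed as higher, and as lower, when either vitrified whole embryo was left out, and fewest as higher without replicate 2. The share of all genes was not counted in those fits. Without vitrified whole embryo 1, whose summed epiblast markers were low, the genes that rose kept their calls. Without vitrified whole embryo 2, CCNB1, CDC20, CDK4, KIF22 and MCM2 lost theirs. The log2 changes there were 0.65 for CCNB1, 0.75 for CDC20 and 0.85 for CDK4. A lone vitrified embryo is then assumed to vary like the other groups.

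MKI67 led this comparison, with 0.865 and 1.44 RPKM in the vitrified whole embryos, against 0.156, 0.221 and 0.365 as the lowest, median and highest of the 6 fresh ones (4.72-fold, log2 change 0.78, SE 0.09, limma adjusted p 1.7e-05). MCM10 had 0.802 and 1.18 in vitrified whole embryos, against 0.214, 0.280 and 0.485 in fresh ones (3.26-fold, limma adjusted p 4.5e-05), and PLK1 had 3.82 and 5.25, against 0.810, 1.56 and 1.82 (3.09-fold, limma adjusted p 6.5e-05). In each of these genes both vitrified embryos lay above all fresh ones. CDK12 had 0.187 and 0.252 in vitrified whole embryos, against 0.0273, 0.0441 and 0.0793 in fresh ones, 4.57-fold (limma adjusted p 1.2e-04). CENPF (2.77-fold), CENPE (2.24-fold), CENPC (2.17-fold), KIF20A (2.19-fold), KIF23 (2.32-fold), MCM5 (2.89-fold), MCM6 (2.73-fold), TOP2A (2.19-fold) and AURKB (2.10-fold) rose too. CDK4 had 29.5 and 44.9 RPKM in vitrified whole embryos, against 11.9, 15.8 and 23.2 in fresh ones (2.29-fold, limma adjusted p 8.5e-04).

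UBE2C and PCNA, which rose in TE, did not pass here. UBE2C had 89.9 and 110 RPKM in vitrified whole embryos, against 38.0, 80.5 and 100 in fresh ones (limma adjusted p 0.20). PCNA had 46.5 and 55.2 in vitrified whole embryos, against 22.1, 34.7 and 50.9 in fresh ones (limma adjusted p 0.15). Both genes overlapped between the groups, as did CDK1 and CDC6 (limma adjusted p 0.63 and 0.88). AURKA averaged 6.59 RPKM in vitrified and 6.12 in fresh whole embryos (limma adjusted p 0.68).

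CDK7, the kinase that activates other CDKs and serves transcription, had 1.34 RPKM in both vitrified whole embryos, against 2.02, 2.43 and 2.59 in fresh ones, and fell by 0.53 on the log2 scale (SE 0.09, limma adjusted p 2.1e-04). PLK3, a polo-like kinase of stress responses, had 0.511 and 0.940 in vitrified whole embryos, against 0.967, 2.0 and 2.92 in fresh ones, and fell by 0.74 (limma adjusted p 0.022). CENPS had 5.17 and 5.41 in vitrified whole embryos, against 7.37, 9.36 and 9.92 in fresh ones (limma adjusted p 0.0099). Both vitrified embryos lay below all fresh ones in all 3 genes. The call of CDK7 was kept without either vitrified embryo. Those of PLK3, CENPS and CENPM were lost without either one, with log2 changes of -0.56, -0.63 and -0.28 without vitrified whole embryo 1 and of -0.92, -0.69 and -0.32 without vitrified whole embryo 2. The calls of PLK3 and CENPM were also lost with the compared groups alone (limma adjusted p 0.066 and 0.053), and that of CENPM with no filter (0.055). In TE, CDK7 and PLK3 were higher in vitrified samples as deposited, at 0.990 and 1.16 RPKM in vitrified TE against 0.358 and 0.409 in fresh TE, so that CENPS was the 1 gene of the set that fell in both comparisons. Of the 19 genes that rose in whole embryos, 17 also rose in TE (89.5% of the 19 and 48.6% of the 35). Over all genes tested 620 rose in both (74.3% of 834 and 23% of 2696).

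**Figure D5:**
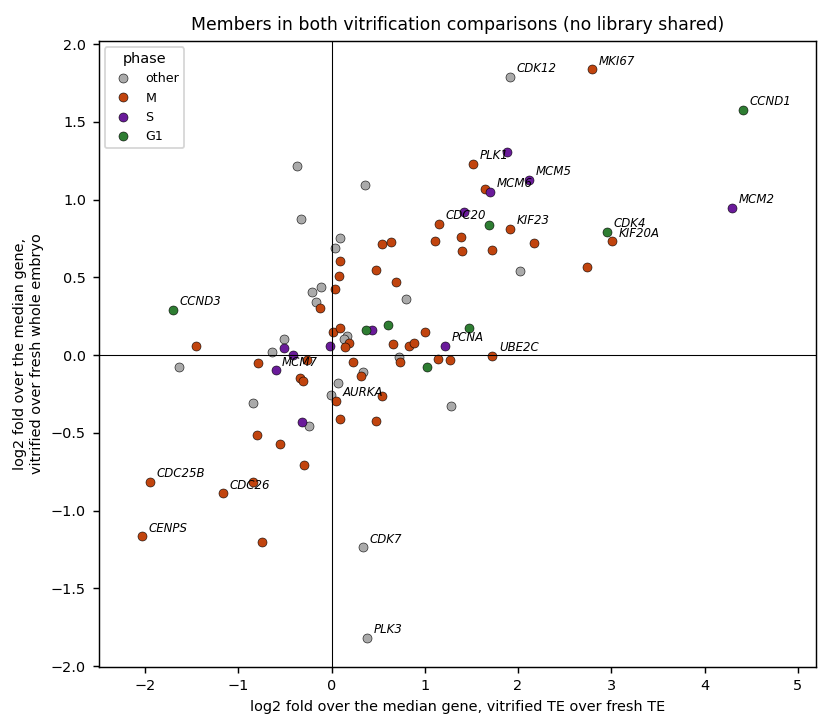
Log2 fold of each gene over the median gene, vitrified over fresh TE on the x axis and vitrified over fresh whole embryos on the y axis, coloured by phase. Of 96 genes with a fold in both, 48 lie above the median gene in both comparisons, 19 below in both, 17 above in TE alone and 12 above in whole embryos alone. The same shares over all genes were not counted.

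Relative to the median gene, 6 of 8 G1 genes with a fold in both comparisons lay above it in both, as did 7 of 12 S genes and 27 of 51 M genes. Below it in both lay 0 of the G1 genes, 3 of the S genes and 12 of the M genes. The same shares over all genes were not counted, so these positions are not shown to be particular to the set. MCM7 lay below it in both, and so did CENPS, CDC25B and CDC26.

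Fresh whole embryos were compared with fresh TE, which shares its fresh TE libraries with the first comparison and its fresh whole embryos with the second. As deposited, 76 genes were higher in fresh whole embryos (73.1%, beside 60.0% of all genes tested), 4 were lower (3.85%, beside 5.97%) and 24 did not pass. By phase, 6 of 10 G1 genes, 10 of 12 S genes, 45 of 53 M genes and 15 of 29 others were higher. Under listed-gene, median-ratio and quantile scaling 61, 45 and 33 were higher (beside 39.7, 30.0 and 23.6%) and 9, 18 and 22 lower (beside 16, 25 and 34.7%). Under all 4 scalings 33 were higher and 4 lower, beside 23.3% and 5.96% of all genes. The groups did not overlap for 68 genes higher in fresh whole embryos (65.4%, beside 48.4%) and 1 lower (0.962%, beside 2.94%). CDK7 had 2.02, 2.43 and 2.59 RPKM as the lowest, median and highest in fresh whole embryos, against 0.362, 0.207, 0.380, 0.400 and 0.441 in fresh TE (6.68-fold, limma adjusted p 3.4e-11). CDK4 had 11.9, 15.8 and 23.2 in fresh whole embryos and 1.53 to 2.89 in fresh TE (8.07-fold, limma adjusted p 5.8e-10). UBE2C had 38.0 to 100 in fresh whole embryos and 9.09 to 12 in fresh TE (7.16-fold), PCNA 22.1 to 50.9 and 5.39 to 6.22 (6.30-fold), and CDC16 2.10 to 2.47 and 0.803 to 0.935 (2.60-fold). None of these overlapped. CENPQ and CENPN, of the inner centromere, were 3.17-fold and 3.25-fold higher, KIF2C 2.36-fold and PLK4, the kinase of centriole duplication, 3.16-fold, the first, the second and the last of them under all 4 scalings. CCND3, CDC25B, CDK10 and CDK3 fell under all 4 scalings, and the call of CDC25B was lost without fresh TE 1 or fresh TE 2 (log2 change -0.15 and -0.18), with the near-identical libraries averaged (limma adjusted p 0.087) and with the compared groups alone (0.055). CCND3 had 0.547, 0.835 and 1.18 RPKM in fresh whole embryos, against 1.25 to 3.29 in fresh TE, with no overlap (0.432-fold, limma adjusted p 8.7e-04). CCND1 did not pass (limma adjusted p 0.062), with 0.0522 to 0.568 RPKM in fresh whole embryos and 0 to 0.106 in fresh TE. Of the MCM ring, MCM2 was 14.9-fold, MCM6 10.8-fold and MCM5 3.44-fold higher in fresh whole embryos, under all 4 scalings, while MCM7 did not pass as deposited (1.06-fold, limma adjusted p 0.68) and was lower under the others.

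Vitrified whole embryos were last compared with vitrified TE, whose libraries also enter the comparisons with the fresh groups. As deposited, 22 genes were higher in vitrified whole embryos (21.2%, beside 15.3% of all genes tested), 2 were lower (1.92%, beside 3.59%) and 80 did not pass. Under listed-gene, median-ratio and quantile scaling 13, 5 and 5 were higher (beside 8.47, 3.12 and 2.59%) and 1, 0 and 0 lower (beside 3.33, 2.55 and 2.07%). The groups did not overlap for 32 genes higher in vitrified whole embryos (30.8%, beside 20.4%) and 1 lower (0.962%, beside 5.94%). Under all 4 scalings BUB3, CCNE1, CDC16, CENPC and MCM6 were higher (4.81%, beside 2.42%) and 0 lower, beside 1.76%. MCM6 had 1.31 and 1.57 RPKM in vitrified whole embryos, against 0.135, 0.418 and 0.548 as the lowest, median and highest in vitrified TE (4.18-fold, limma adjusted p 7.0e-04). CCNE1 had 0.921 and 1.07 in vitrified whole embryos, against 0.0922, 0.263 and 0.406 in vitrified TE (3.97-fold, limma adjusted p 0.0013), and CDC16 had 2.45 and 2.91, against 1.27, 1.55 and 1.69 (1.79-fold, limma adjusted p 8.3e-04). Neither embryo overlapped with TE in these genes. KIF3A and CENPC were 1.73-fold and 1.85-fold higher as deposited (limma adjusted p 0.0041 for both), KIF3A under 2 scalings. The calls of BUB3, CENPC and KIF3A were lost without vitrified whole embryo 2, where the log2 changes were 0.89, 0.15 and 0.12. CDK4 had 29.5 and 44.9 RPKM in vitrified whole embryos and 26.6 to 38.9 in vitrified TE (limma adjusted p 0.77), and MKI67 averaged 1.15 and 1.16 (limma adjusted p 0.94). Fewer genes passed when either vitrified whole embryo was left out, and fewest without replicate 2. The share of all genes was not counted in those fits.

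The difference between the vitrification effects in whole embryos and in TE was tested as a contrast of its own, whole embryo minus TE. It was negative for 30 genes (28.8%, beside 28.4% of all genes tested) and positive for 3 (2.88%, beside 3.98%). Under listed-gene, median-ratio and quantile scaling it was negative for 19, 17 and 14 genes (beside 16.5, 13.2 and 11.3%) and positive for 5, 6 and 13 (beside 9.22, 14.0 and 19.5%). Under all 4 scalings it was negative for 14 genes (13.5%, beside 10.8%) and positive for CCND3, CDC23 and CDK10 (2.88%, beside 3.72%). The strongest calls were CDK7 (-1.09 on the log2 scale, SE 0.11, limma adjusted p 9.3e-07), CDK4 (-2.4, SE 0.27, limma adjusted p 5.1e-06), KIF20A (-1.39, SE 0.19, limma adjusted p 3.1e-05), UBE2C (-2.29, SE 0.32, limma adjusted p 4.0e-05) and CENPQ (-0.43, SE 0.07, limma adjusted p 2.1e-04, not called under quantile normalization). For CDK7 the effects had opposite signs, and for CDK4 and KIF20A both were positive and the one in TE larger. Fewer genes were negative without vitrified whole embryo 1 and more without vitrified whole embryo 2, and fewer were positive in both fits. The share of all genes was not counted there. The 5 genes just named were called without either embryo, while CCND3, CDC23 and CDK10 were not called without vitrified whole embryo 1, where their log2 differences were 0.53, 0.29 and 0.39. The call of CDK10 was also lost without vitrified whole embryo 2 (0.40), and that of CCND3 without fresh TE 3 or fresh TE 4 (0.55 and 0.61), with the near-identical libraries averaged (limma adjusted p 0.053) and with no filter (0.066).

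Spread within groups was modest for these genes. Among those with at least 50 reads per library on average, the median coefficient of variation was 16.6% in vitrified TE (79 genes), 19.2% in fresh TE (49 genes), 12.6% in vitrified whole embryos (81 genes) and 18.4% in fresh whole embryos (78 genes), beside 18.2, 18, 15.8 and 21.5% for all genes. G1 genes varied more than M genes within vitrified TE, with medians of 25.4% over 5 genes and 16.3% over 48.

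Reads of overlapping genes cannot always be told apart here, since the counting rule is not given in the sources used here. MCM9 shares 13.7% of its span with ASF1A on the other strand, CENPO 1.36% with ADCY3, and KIF24 47.4% with a gene known by identifier alone. CCND3, CENPQ, CENPI, MCM3 and MCM6 lie within the listed spans of gene families whose copies are far apart (H2B, BEX2 and PTMA). In all, 38 genes of the set overlapped another listed span. Most of them lay within spans listed for noncoding RNA families, among them AURKB, KIF20A, KIF23, TOP2A, CDK12 and CENPX.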

How the data were processed

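Total RNA of 20 bovine samples was sequenced, and the authors deposited 1 table of RPKM for 15542 genes with UMD3.1 coordinates. FastQC, STAR 2.5.3a, Partek and UMD3.1 are named in the submitters' processing notes. The deposited RPKM hold an added 0.01 and are per kilobase of genomic span (median 16.752 kb), as read from the values: with 0.01 removed, 94.4 to 95.8% of values under 1000 reads lay within 0.1 of a whole read. No count test was run on these recovered reads, which served for filters and depth.

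Genes with at least 10 reads in at least 2 libraries were tested (10599, leaving 4943). limma 3.58.1 in R 4.3.3 (statmod 1.5.0) was fitted to log2(RPKM + 1) over 4 group means with trended, robust variance, and p-values were adjusted by Benjamini-Hochberg at 0.05. Alternatives were 3 other scalings, a pseudocount of 0.1, no filter, a replicate block, near-identical libraries averaged, the compared groups alone, and each fresh TE and vitrified whole embryo library left out. Deviations of same-numbered samples correlated at -0.19 to 0.38 over 22 pairs, 7 of them over 0.1. Most of those over 0.1 paired a fresh whole embryo with a vitrified TE sample. Vitrified TE 1 with vitrified whole embryo 1 was at 0.31. A sample's best match in another group bore its own number in 8 of 44 cases. The numbers were not taken as pairs, and the replicate block is given as an alternative.

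The members and lists were chosen with earlier results of these data known. Genes were named by a rule: per class, those with the smallest p, those lower and the one with the largest p that did not pass, and a short list of core genes. Other genes named, and 3 within-library ratios, were chosen after their values were seen. Sequences are not used here.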

Additional observations from a re-analysis of the deposited data

Results flagged for a closer look

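Over the 70 genes named by rule, 210 groups of 4 to 10 samples were looked at and 9 held a sample far from the others, and chance gives about 1 in 20. In fresh TE 1, CDC25C was high at 0.401 RPKM (nearest sample 0.324), CDK1 at 1.40 (1.03) and CDK12 at 0.0594 (0.0252). CDK13 was high in fresh TE 5 at 0.0160 (0.00910), and CENPQ was low in fresh TE 4 at 0.109 (0.217). CENPS was high in vitrified TE 6 at 5.47 (4.24). In fresh whole embryo 4, CDK10 was high at 0.967 (0.684) and CENPJ at 0.680 (0.414), and KIF23 was high in fresh whole embryo 3 at 1.12 (0.762).

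For 33 of the 104 genes tested the vitrification effect in whole embryos differed from that in TE, by a limma contrast of the difference (whole embryo minus TE, log2 scale, adjusted p in parentheses). It was negative for 30 (28.8%, beside 28.4% of all genes) and positive for 3 (2.88%, beside 3.98%), so the shares lie near those of all genes. Under all 4 scalings 17 of the 33 were called, and the others were AURKA, AURKAIP1, CCNA2, CCNB1, CCNB2, CDC20, CDC45, CDK1, CDK13, CENPL, CENPM, CENPN, CENPQ, CENPW, KIF5B and MCM3. Among G1 genes the difference was -2.4 for CDK4 (5.1e-06), -0.64 for CCND1 (0.033) and 0.69 for CCND3 (0.042). Among S genes it was -1.64 for PCNA (7.5e-04), -1.19 for MCM2 (0.0017), -0.92 for MCM5 (0.0067), -0.73 for MCM3 (0.0061) and -0.29 for CDC45 (0.026). Among mitotic kinases and cyclins it was -1.09 for AURKB (6.1e-04), -0.85 for AURKA (8.0e-04), -0.95 for CCNA2 (0.0031), -0.94 for CDK1 (0.0043), -0.77 for CCNB1 (0.0067) and -0.44 for CCNB2 (0.014). For the APC/C it was -2.29 for UBE2C (4.0e-05), -0.97 for CDC20 (0.011) and 0.34 for CDC23 (0.022). At the centromere it was -1.88 for CENPX (6.2e-04), -1.04 for CENPT (4.3e-04), -0.82 for CENPW (9.9e-04), -0.48 for CENPN (0.0071), -0.45 for CENPM (0.012), -0.43 for CENPQ (2.1e-04) and -0.25 for CENPL (0.02). Among kinesins it was -1.39 for KIF20A (3.1e-05), -0.94 for KIF2C (3.5e-04) and -0.57 for KIF5B (0.013). Among the others it was -1.33 for PLK3 (0.0019), -1.09 for CDK7 (9.3e-07), -0.91 for AURKAIP1 (0.019), -0.85 for CDK16 (2.7e-04), -0.046 for CDK13 (0.04) and 0.40 for CDK10 (0.023). All of these share the fresh TE libraries that stood apart.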

How the results depend on the processing

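Scaling moved the counts most. Shares of all genes were counted under the 4 scalings alone, so the counts under other settings cannot be read against them. In TE, 51 genes were higher and 15 lower under median-ratio scaling, 35 and 29 under quantile normalization, and 7 were lower under listed-gene scaling and with no filter. In vitrified against fresh whole embryos, 25 were higher under median-ratio and 19 under quantile scaling, 7 were lower under quantile scaling and 2 with the compared groups alone, and leaving out a library gave 19 to 46 higher and 1 to 4 lower. In fresh whole embryo against fresh TE, 45 were higher and 18 lower under median-ratio and 33 and 22 under quantile scaling, with 9 lower under listed-gene scaling and 7 with no filter. In vitrified whole embryo against vitrified TE, 13 were higher under listed-gene scaling, 5 under median-ratio, 5 under quantile, 10 with the replicate block, 11 with the compared groups alone and 3 to 22 with a library left out. There, 1 was lower under listed-gene scaling, a pseudocount of 0.1 or averaging, 0 with no filter, median-ratio, quantile, block or compared groups alone, and 0 to 2 with a library left out. The difference was positive for 5, 6 and 13 genes under listed-gene, median-ratio and quantile scaling, 1 with the replicate block and 1 to 3 with a library left out, and negative for 19, 17 and 14 under those scalings and 18 to 34 with a library left out. The replicate block moved no other count by over 1.5 times. Among the genes described as fallen or as positive in the difference, the fit with the block did not call CENPS in whole embryos (log2 -0.50, limma adjusted p 0.081), CDC25B in fresh whole embryo against fresh TE (-0.16, 0.064) or the differences of CDK10 (0.36, 0.076) and CCND3 (0.72, 0.064). The ratio of CDC26 to CDC27 stayed between -1.04 and -1.31 on the log2 scale.

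Over 205 results of single genes, 3046 alternatives gave 2688 of the same direction and call, 318 no longer past the threshold and 40 of opposite sign, all of these under a scaling.
Under median-ratio scaling, the log2 values for vitrified minus fresh TE were AURKAIP1 -0.19, BUB1 -0.11, CDC16 -0.18, CDC6 -0.24, KIF11 -0.10, KIF3A -0.018 and MCM7 -0.55. Under quantile normalization, the log2 values for vitrified minus fresh TE were AURKAIP1 -0.10, BUB1 -0.215, CDC16 -0.27, CDC27 -0.075, CDC45 -0.088, CDC6 -0.30, CDK6 -0.011, KIF11 -0.20, KIF13A -0.0049, KIF13B -0.011, KIF1BP -0.04, KIF3A -0.0798, KIF5B -0.046, MCM7 -0.52 and PLK4 -0.059. Under median-ratio scaling, the log2 values for fresh whole embryo minus fresh TE were BUB1 -0.011, CDC45 -0.23, CENPA -0.051 and KIF11 -0.013. Under quantile normalization, the log2 values for fresh whole embryo minus fresh TE were BUB1 -0.065, BUB1B -0.019, CDC45 -0.28, CDK6 -0.0038, CENPA -0.12, KIF11 -0.063, KIF13B -0.003, KIF3A -0.036, MCM8 -0.0082 and PLK2 -0.013. Under listed-gene scaling, the log2 value for fresh whole embryo minus fresh TE was -0.11 for CDC45. Under median-ratio scaling, the difference of effects for CDC45 was 0.0502, and under quantile normalization 0.11. For vitrified minus fresh TE, MCM7 was -0.10 under listed-gene scaling. The cause of these changes was not tested.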
